A study of Mus musculus with 24 samples.

Results

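The genes described here are 38 genes of glycolysis and of the transcriptional response to low oxygen, chosen by name and followed over 10 RNA libraries of mouse cells. They are 38 of the 53379 genes in the tables, and all 38 passed the filter on low counts that left 19470 genes for testing. They comprise 3 glucose and lactate transporters, 16 glycolytic enzymes, 3 regulators of glycolytic flux, 4 subunits or oxygen sensors of the hypoxia-inducible factors, 2 secreted factors, 7 stress and mitochondrial targets and 3 enzymes of protein folding and collagen hydroxylation. RNA was sequenced from E14Tg2a.IV mouse embryonic stem cells in 5 groups of 2 libraries. Embryoid bodies, which are aggregates that differentiate in medium free of LIF, were taken at day 4. They came from cells labelled Smad2/3DKO (double knockout, DKO), Smad2-/- (Smad2 KO), Smad3-/- (called the Smad3-labelled libraries below) and wild type (WT). Undifferentiated WT cells at day 0 formed the fifth group. All groups share the parental line. The file names carry 1 number per knockout, taken here as 1 cell line each, so that a knockout cannot be told apart from its line. Whether the libraries of a group are separate cultures is not in the labels, and the p-values therefore rest on a spread between libraries that may be technical.

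Glycolysis breaks glucose down to pyruvate, and lactate dehydrogenase turns pyruvate into lactate when respiration is limited. The hypoxia-inducible factors (HIF) pair an alpha subunit, HIF-1 alpha (Hif1a) or HIF-2 alpha (Epas1), with the constant partner ARNT and bind a short core sequence near their targets. With oxygen present, prolyl hydroxylases (Egln1, Egln3) mark the alpha subunits for destruction, so the control of HIF is largely at the protein level, and RNA levels of the alpha subunits do not show its activity. SMAD2 and SMAD3 are the intracellular mediators of signals from the Nodal, Activin and TGF-beta receptors.

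Promoter sequences are shown for 4 members, to show what the HIF core looks like in genes that differ in their response here: Adm, Pfkfb3 and Car9 were called higher in the Smad3-labelled libraries against WT, and Ldha, a textbook HIF target, was called in no knockout. Each runs from 250 bases before to 50 after a RefSeq start of the gene, 5′ to 3′ on the gene's own strand (GRCm38.p6). That start can differ from the GENCODE gene coordinates used elsewhere here. For Ldha these begin at 46841475, before the window. Capitals mark the HIF core ACGTG, its variant with the letters GCGTG, and their reverse complements, which are CACGT for the first and then CACGC for the variant. Adm lies on chr7:110627407-110627706 (+), Pfkfb3 on chr2:11553880-11554179 (-), Car9 on chr4:43506776-43507075 (+) and Ldha on chr7:46845554-46845853 (+).
Adm: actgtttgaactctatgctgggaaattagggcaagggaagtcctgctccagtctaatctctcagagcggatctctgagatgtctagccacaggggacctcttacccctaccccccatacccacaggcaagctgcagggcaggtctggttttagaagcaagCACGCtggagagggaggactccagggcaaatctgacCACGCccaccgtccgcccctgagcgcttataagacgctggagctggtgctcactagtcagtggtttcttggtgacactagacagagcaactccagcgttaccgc
Pfkfb3: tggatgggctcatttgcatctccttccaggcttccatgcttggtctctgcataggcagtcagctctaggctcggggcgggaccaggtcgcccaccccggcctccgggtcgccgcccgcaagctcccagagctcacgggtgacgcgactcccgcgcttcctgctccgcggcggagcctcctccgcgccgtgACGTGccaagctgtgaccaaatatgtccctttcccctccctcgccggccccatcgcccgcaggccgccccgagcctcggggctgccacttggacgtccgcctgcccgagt
Car9: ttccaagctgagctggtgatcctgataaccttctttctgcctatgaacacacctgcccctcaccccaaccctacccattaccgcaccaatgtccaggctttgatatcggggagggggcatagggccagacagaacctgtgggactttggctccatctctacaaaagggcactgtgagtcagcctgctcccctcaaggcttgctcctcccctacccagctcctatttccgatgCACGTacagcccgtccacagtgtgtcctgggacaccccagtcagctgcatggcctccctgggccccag
Ldha: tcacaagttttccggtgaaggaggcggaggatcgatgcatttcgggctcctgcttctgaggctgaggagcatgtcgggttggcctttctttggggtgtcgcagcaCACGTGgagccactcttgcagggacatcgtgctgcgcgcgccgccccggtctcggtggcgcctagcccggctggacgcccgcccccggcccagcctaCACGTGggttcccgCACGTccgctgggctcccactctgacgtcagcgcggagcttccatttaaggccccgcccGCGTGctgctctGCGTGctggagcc
The window held 2 matches in Adm, 1 in Pfkfb3, 1 in Car9 and 7 in Ldha. Overlapping matches were counted, so each CACGTG in Ldha counts as 2, CACGT and ACGTG, and its matches lie in fewer marked stretches. Of the 35 members with an entry in the promoter table, 28 held at least 1 match (80%), against 14380 of all 32851 promoters in it (43.8%). The members were counted with 1 promoter each and the table with every entry, members included. The sets were not matched for base composition or expression, so the shares are not like for like, and their difference was not tested. Among the 6 genes called in the Smad3-labelled libraries, 3 of the 5 with an entry held a match, and the windows of Vegfa and Eno2 held 0. A match is only the presence of these letters in the window.

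Depth was 35733249 to 53672980 expected counts per library. Levels are given in CPM, counts scaled by TMM-adjusted library totals, which compare a gene between samples. Tests are edgeR quasi-likelihood tests with Benjamini-Hochberg adjustment over all 19470 genes, and a gene is called at an adjusted p under 0.05. The targeted gene Smad2 stood at 22.2 and 22.7 in the DKO, 19.2 and 20.4 in the Smad2 KO, 38.3 and 39.3 in the Smad3-labelled libraries and 49.9 and 38.3 CPM in WT at day 4. Smad3 stood at 27.97 and 25.7 in the DKO, 30.8 and 31.004 in the Smad2 KO, 49.7 and 48.7 in the Smad3-labelled libraries and 42.03 and 44.9 CPM in WT, so its RNA did not check the Smad3-/- label. The 2 WT libraries of day 4 differed from each other: over the 38 genes the median gap between them was 0.49 on the log2 scale, against 0.13 in the DKO, 0.30 in the Smad2 KO, 0.13 in the Smad3-labelled libraries and 0.10 at day 0. The share of counts on ribosomal protein genes was 14.4 and 13.7% in the Smad2 KO, against 5.98 and 7.38% in WT. Fold changes followed gene length in that comparison, with a Spearman correlation of -0.62 across 14033 genes, which are not independent replicates. Its part in the Smad2 KO values was not tested beyond the offset fit given below. In bulk libraries, fewer cells of a type and less RNA per cell cannot be told apart.

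Against WT at day 4, nearly all members called in a knockout group in the main fit were higher. Among them were hypoxia targets, glucose transporters and flux regulators. On the TPM scales this did not hold for the Smad2 KO, as given below. The DKO had 16 members called higher and 0 lower, where 23.1% of all genes tested were called, 10.8% higher and 12.3% lower. At an unadjusted p under 0.05, 2 members were lower in it, where 3745 of 19470 genes were. DESeq2 called 1 member lower in it, where it called 4720 of 32651 genes, 2392 of them higher. The Smad2 KO had 16 members called higher and 1 lower, where 35.5% of all genes were called, 15.4% higher and 20.1% lower. The Smad3-labelled libraries had 6 members called higher and 0 lower, where 0.555% of all genes were called, 0.431% higher and 0.123% lower. At an unadjusted p under 0.05, 17 members were higher and 0 lower in them, where 1530 of 19470 genes were higher and 1813 lower. DESeq2 called 14 members higher and 0 lower in the Smad3-labelled libraries, where it called 757 of 32651 genes, 485 of them higher. The median log2 fold change of the 38 genes was 0.47 in the DKO, 0.67 in the Smad2 KO and 0.52 in the Smad3-labelled libraries, where the medians over all genes tested were -0.05, -0.01 and -0.04. These 3 comparisons share the WT libraries, so their values are given side by side and no overlap of their calls is read.

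**Figure D1:**
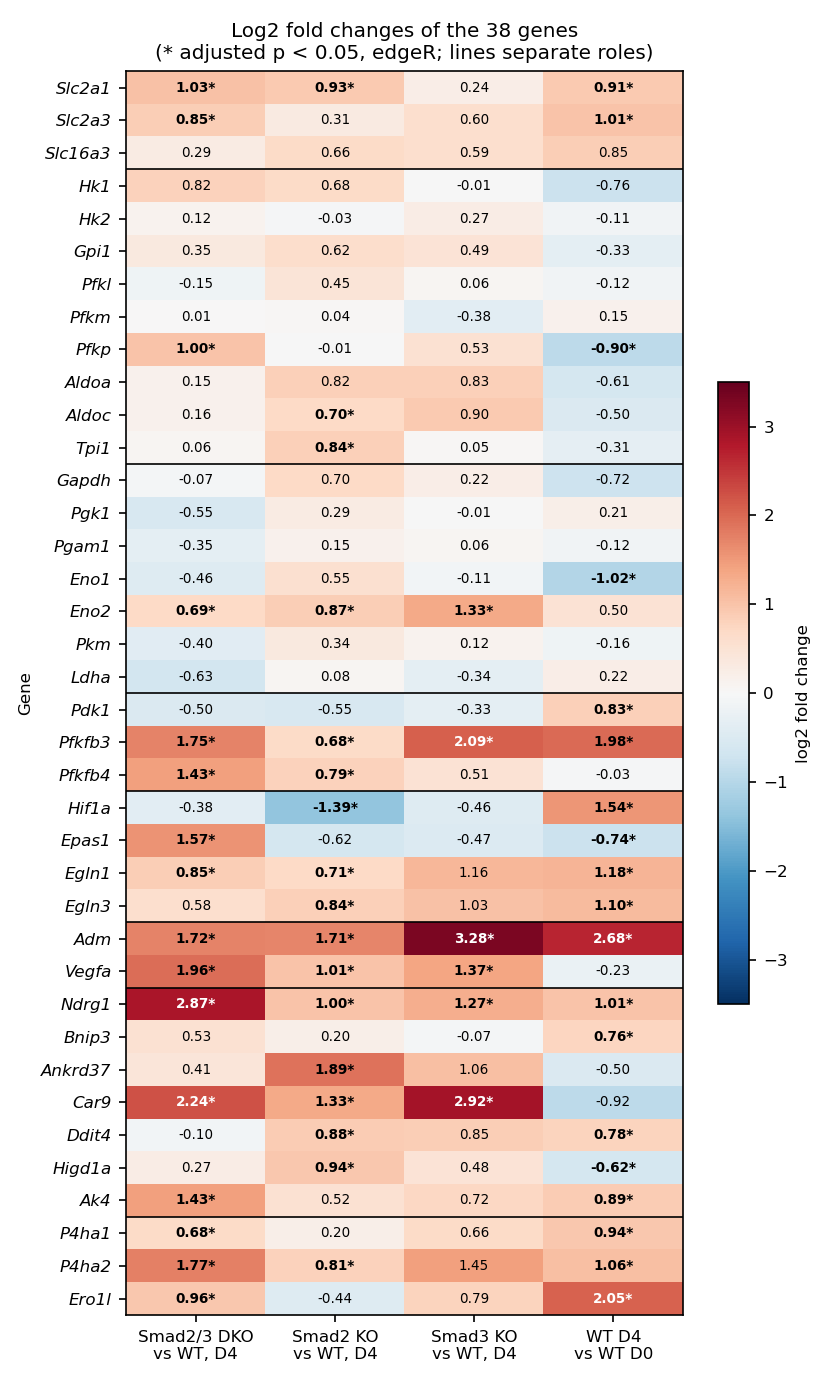
Log2 fold changes of the 38 genes (vertical axis, grouped by role from transporters at the top to folding enzymes at the bottom) in 4 comparisons (horizontal axis), with an asterisk for an adjusted p under 0.05. The 16 calls of the DKO lie mostly outside the glycolytic enzymes, of which 2 were called there, and the 6 calls of the Smad3-labelled libraries include the 2 secreted factors.

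By role, 14 of the 22 members that are not glycolytic enzymes were called higher in the DKO, 13 in the Smad2 KO and 5 in the Smad3-labelled libraries. Of the 16 enzymes, 2 were called higher in the DKO, 3 in the Smad2 KO and 1 in the Smad3-labelled libraries. Over all genes tested, 10.8% were called higher in the DKO, 15.4% in the Smad2 KO and 0.431% in the Smad3-labelled libraries. The enzyme counts of the DKO and the Smad2 KO lay near those shares. The median log2 fold change of the enzymes was 0.04 in the DKO, 0.50 in the Smad2 KO and 0.09 in the Smad3-labelled libraries, and that of the other 22 members was 0.91 in the DKO, 0.75 in the Smad2 KO and 0.76 in the Smad3-labelled libraries.

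The secreted factors were higher in every knockout group. Adm, which encodes the vasodilator peptide adrenomedullin (ENSMUSG00000030790.15, chromosome 7, 110627661 to 110629820, mm10), had 11.2 and 17.8 in the DKO, 13.2 and 15.5 in the Smad2 KO and 40.8 and 44.7 in the Smad3-labelled libraries, against 3.59 and 5.18 CPM in WT at day 4. No library of a knockout group overlapped WT, and the Smad3-labelled pair stood above all other libraries. The log2 fold change of Adm was 1.72 in the DKO (SE 0.28, adjusted p = 0.00244), 1.71 in the Smad2 KO (SE 0.28, adjusted p = 0.00277) and 3.28 in the Smad3-labelled libraries (SE 0.30, adjusted p = 0.00735), the last a 9.75-fold difference. Vegfa, the vascular endothelial growth factor (ENSMUSG00000023951.17, chromosome 17, 46016993 to 46032369), had 160.1 and 152 in the DKO, 75.5 and 85.7 in the Smad2 KO and 96.8 and 110.4 in the Smad3-labelled libraries, against 32.9 and 47.1 CPM in WT. Here the DKO pair was the highest, and no knockout library overlapped WT. Its log2 fold change was 1.96 in the DKO (adjusted p = 0.000382), 1.01 in the Smad2 KO (adjusted p = 0.00758) and 1.37 in the Smad3-labelled libraries (adjusted p = 0.0351).

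**Figure D2:**
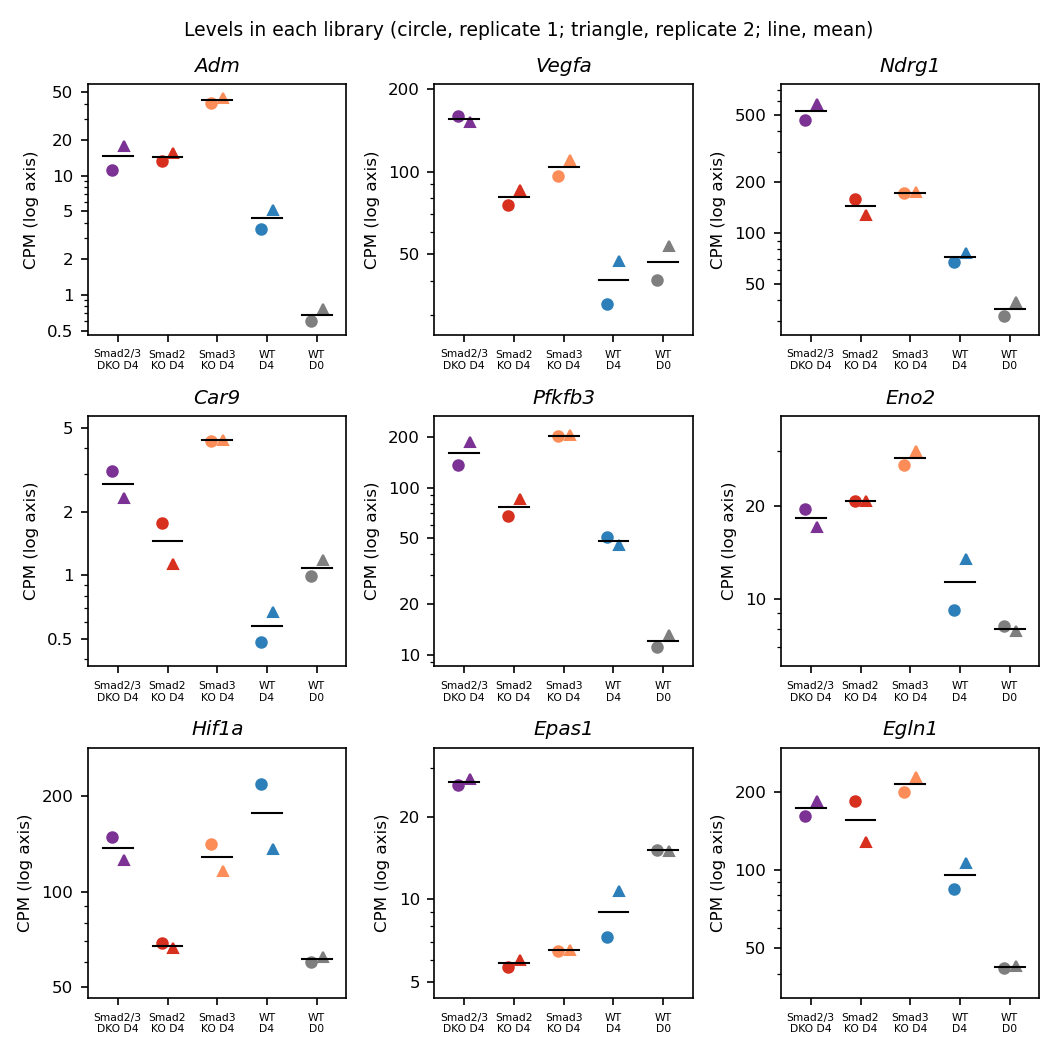
CPM on a log axis for 9 members in each library, with the DKO at the left, then the Smad2 KO, the Smad3-labelled libraries, WT at day 4 and WT at day 0; circles are replicate 1, triangles replicate 2 and lines the mean. Adm was highest in the Smad3-labelled pair at 40.8 and 44.7 CPM, Ndrg1 in the DKO pair at 466 and 581 CPM, and Hif1a was lower in the Smad2 KO than in the other day 4 groups.

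Among the stress and mitochondrial targets, Ndrg1 and Car9 had the largest fold changes in the DKO. Ndrg1, a stress-response gene induced by hypoxia (ENSMUSG00000005125.12, chromosome 15, 66929318 to 66969640), had 466 and 581 in the DKO, 159 and 128 in the Smad2 KO and 171 and 175 in the Smad3-labelled libraries, against 67.2 and 76.2 CPM in WT. The DKO libraries stood apart from all others, and its log2 fold change there was 2.87 (SE 0.20, adjusted p = 3.77e-05), a 7.3-fold difference, against 1.00 in the Smad2 KO (adjusted p = 0.00466) and 1.27 in the Smad3-labelled libraries (adjusted p = 0.0321). Car9, a carbonic anhydrase at the cell surface that regulates pH (ENSMUSG00000028463.14, chromosome 4, 43506966 to 43513729), had 3.11 and 2.32 in the DKO, 1.77 and 1.13 in the Smad2 KO and 4.33 and 4.37 in the Smad3-labelled libraries, against 0.48 and 0.666 CPM in WT. Its log2 fold change was 2.24 in the DKO (adjusted p = 0.00231), 1.33 in the Smad2 KO (adjusted p = 0.0195) and 2.92 in the Smad3-labelled libraries (adjusted p = 0.0175), and no knockout library overlapped WT. Car9 held 869 counts over all 10 libraries, and an antisense gene on the other strand (Gm12454) held 255, so its levels are uncertain if counting ignored strand, a setting not given in the sources used.

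Ak4, a mitochondrial adenylate kinase, was called in the DKO and in no other knockout group. It had 259 and 248 CPM there, 115 and 156 in the Smad2 KO and 159.7 and 150.5 in the Smad3-labelled libraries, against 106 and 81.9 CPM in WT, at log2 fold change 1.43 in the DKO (SE 0.20, adjusted p = 0.00104). Ankrd37, an ankyrin repeat gene known as a HIF target, had 6.91 and 8.698 in the DKO, 14.01 and 29.5 in the Smad2 KO and 12.7 and 11.8 in the Smad3-labelled libraries, against 5.56 and 6.18 CPM in WT. It was called in the Smad2 KO (log2 fold change 1.89, SE 0.34, adjusted p = 0.00404), where the 2 libraries differed from each other. Its 4762 counts overlap Ufsp2, with 12995 counts on the other strand, so its reads are uncertain. Ddit4, an inhibitor of mTORC1 signalling, and Higd1a, a mitochondrial protein induced by hypoxia, were called higher in the Smad2 KO, by 0.88 and 0.94 on the log2 scale (adjusted p = 0.0212 and 0.0139). Bnip3, a mitophagy receptor and a HIF-1 target, was called in no knockout, with 488 and 470.3 in the DKO, 408 and 356 in the Smad2 KO and 336 and 300.2 in the Smad3-labelled libraries, against 388 and 278 CPM in WT.

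The alpha subunits of HIF differed from each other and between the knockouts. Hif1a (ENSMUSG00000021109.13, chromosome 12, 73901375 to 73947530) had 149 and 126 in the DKO, 68.95 and 66.6 in the Smad2 KO and 142 and 116 in the Smad3-labelled libraries, against 219.5 and 136 CPM in WT. The Smad2 KO pair was the lowest of day 4, and Hif1a fell there by 1.39 (log2 scale, SE 0.23, adjusted p = 0.00293), as the only member called lower in a knockout. On the length-adjusted TPM scales and with a length and GC offset the call was kept, with values from -2.02 to -0.37 over all alternatives. Epas1 (ENSMUSG00000024140.9, chromosome 17, 86753700 to 86833410) had 26.1 and 27.4 in the DKO, 5.69 and 6.04 in the Smad2 KO and 6.51 and 6.56 in the Smad3-labelled libraries, against 7.32 and 10.7 CPM in WT. It rose by 1.57 on the log2 scale in the DKO (SE 0.22, adjusted p = 0.00114), and was not called in the Smad2 KO (log2 fold change -0.62, adjusted p = 0.0516), where the sign turned with a length and GC offset (0.060). Per length, Epas1 made up 12.4 and 14.1% of the summed TPM of Hif1a and Epas1 in the DKO, against 2.71 and 6.19% in WT, so Hif1a was the more abundant subunit in both.

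Both oxygen sensors, which are HIF targets themselves, were called higher in the Smad2 KO. Egln1 had 161 and 185 in the DKO, 184 and 129 in the Smad2 KO and 200.1 and 228 in the Smad3-labelled libraries, against 84.7 and 107 CPM in WT. It was called in the DKO (log2 fold change 0.85, adjusted p = 0.0172) and the Smad2 KO (0.71, adjusted p = 0.0273), and its value in the Smad3-labelled libraries, 1.16 (SE 0.21), lay just outside the threshold at an adjusted p of 0.0507. Egln3 had 69.5 and 119 in the DKO, 92.4 and 133 in the Smad2 KO and 125 and 132 in the Smad3-labelled libraries, against 65.6 and 60.5 CPM in WT. A call was made in the Smad2 KO (0.84, adjusted p = 0.033). The DKO libraries of Egln3 differed from each other by more than those of the other groups.

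Both glucose uptake genes were called higher in the DKO. Slc2a1 (GLUT1, the basal glucose transporter) had 1624 and 1753 in the DKO, 1680.5 and 1459 in the Smad2 KO and 896 and 1057 in the Smad3-labelled libraries, against 547 and 1106 CPM in WT. Its log2 fold change was 1.03 in the DKO (adjusted p = 0.0312) and 0.93 in the Smad2 KO (adjusted p = 0.0342), while the Smad3-labelled libraries overlapped WT. Slc2a3 (GLUT3, a high-affinity glucose transporter) had 3161 and 3244 in the DKO, 2322 and 2079 in the Smad2 KO and 2756 and 2621 in the Smad3-labelled libraries, against 1850.1 and 1702 CPM in WT. It was called in the DKO (log2 fold change 0.85, SE 0.16, adjusted p = 0.00585). Slc16a3, a lactate exporter, was called in no knockout, with 278 ± 13.4 in the DKO, 361 ± 94.1 in the Smad2 KO, 344 ± 73.8 CPM in the Smad3-labelled libraries and 228 ± 155 CPM in WT (SD, n = 2 each).

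Both PFKFB genes, whose enzymes set the level of fructose 2,6-bisphosphate and thereby the pace of phosphofructokinase, were called higher in the DKO and the Smad2 KO, and Pdk1 was not. Pfkfb3 (ENSMUSG00000026773.19, chromosome 2, 11471433 to 11554077) had 136 and 186 in the DKO, 67.8 and 85.9 in the Smad2 KO and 203 and 206 in the Smad3-labelled libraries, against 50.3 and 45.6 CPM in WT. The Smad3-labelled pair was the highest, and the log2 fold change was 1.75 in the DKO (adjusted p = 0.000482), 0.68 in the Smad2 KO (adjusted p = 0.0279) and 2.09 in the Smad3-labelled libraries (adjusted p = 0.00735). Pfkfb4 had 6.31 and 6.89 in the DKO, 4.02 and 4.44 in the Smad2 KO and 3.66 and 3.31 in the Smad3-labelled libraries, against 2.195 and 2.69 CPM in WT. A call was made in the DKO (1.43, adjusted p = 0.00332) and the Smad2 KO (0.79, adjusted p = 0.0332). Pdk1, the kinase that shuts pyruvate dehydrogenase and a classical HIF-1 target, had 264 and 264 in the DKO, 185 and 323 in the Smad2 KO and 296 and 298 in the Smad3-labelled libraries, against 389.5 and 357 CPM in WT. No knockout library of Pdk1 exceeded the WT pair, and no call was made.

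Most glycolytic enzymes were not called in any knockout. In each comparison most genes were uncalled: 23.1% were called in the DKO, 35.5% in the Smad2 KO and 0.555% in the Smad3-labelled libraries. Most enzymes had WT libraries that lay far apart, with a ratio of 2.07 for Gapdh, while those of Pfkp (1.05) and Pgam1 (1.08) lay close. Per length, they include the most abundant members: in WT at day 4 Gapdh averaged 4328 ± 1137 TPM, Ldha 2718 ± 501 TPM and Aldoa 2689 ± 1158 TPM, against 33.9 ± 5.996 TPM for Vegfa and 5.14 ± 1.12 TPM for Adm (SD, n = 2 each). The summed level of the 16 enzymes was 16652 and 16472 in the DKO, 27564 and 25158 in the Smad2 KO and 20666 and 22665 in the Smad3-labelled libraries, against 14855 and 23331 CPM in WT. In CPM the DKO and Smad3-labelled sums lay within the span of the WT pair, and the Smad2 KO sums above it. The WT library at 14855 CPM is the one in the file-name series that holds both DKO libraries, as given below. Both DKO sums lay above that library. In summed TPM the order differed, with 18810 and 19103 in the DKO and 17029 and 14150 in the Smad2 KO. The Smad3-labelled libraries had 22608 and 23219 TPM, above both WT libraries at 15893 and 21499 TPM. No Smad2 KO sum lay above the WT pair on that scale. Gapdh, the glyceraldehyde 3-phosphate dehydrogenase, had 2311 and 2363 in the DKO, 4024 and 3971 in the Smad2 KO and 2636 and 3099 in the Smad3-labelled libraries, against 1603 and 3319.8 CPM in WT. Ldha, lactate dehydrogenase A, had 1634 and 1824 in the DKO, 3123 and 2549 in the Smad2 KO and 1999.5 and 2231 in the Smad3-labelled libraries, against 2253 and 3106 CPM in WT. Its log2 fold change of -0.63 in the DKO (SE 0.21) lay just outside the threshold at an adjusted p of 0.0564.

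**Figure D3:**
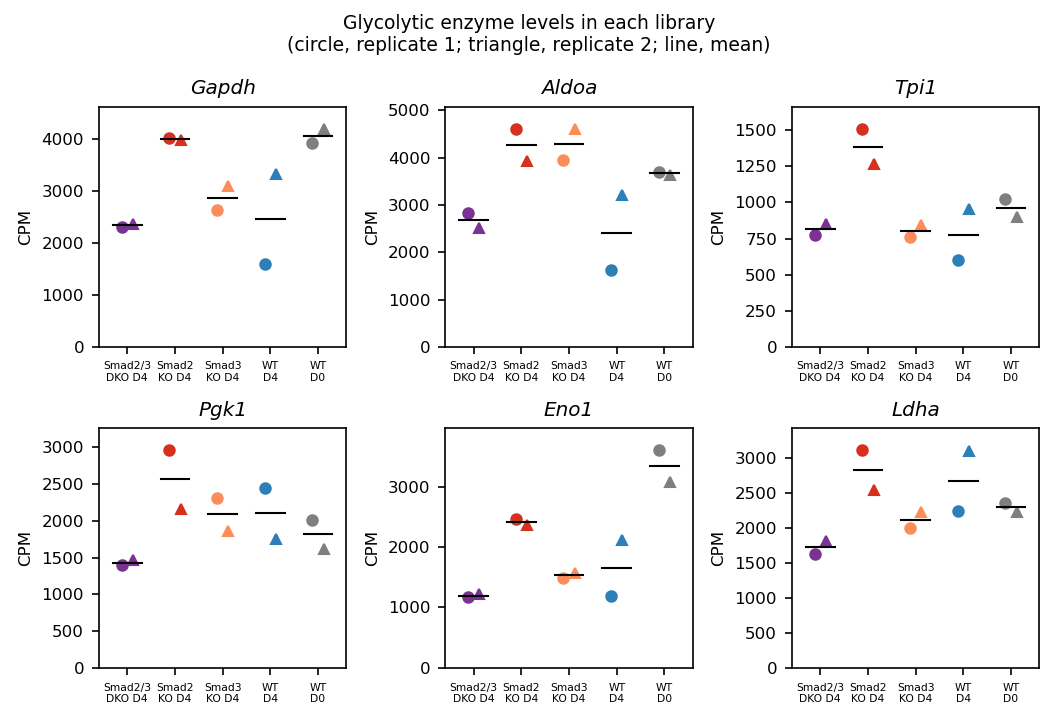
CPM of 6 glycolytic enzymes in each library, from the DKO at the left to WT at day 0 at the right; circles are replicate 1, triangles replicate 2 and lines the mean, and the axes start at 0. The WT libraries of day 4 lie apart, at 1603 and 3319.8 CPM for Gapdh, and the DKO lies within or below their span in all 6.

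Hk2, the inducible hexokinase and a HIF target, had 221 and 243 in the DKO, 152 and 266 in the Smad2 KO and 248 and 267 in the Smad3-labelled libraries, against 192 and 236 CPM in WT. A call was made in none of them. Eno1, the main enolase, had 1168 and 1221 in the DKO, 2459 and 2369.9 in the Smad2 KO and 1486 and 1575 in the Smad3-labelled libraries, against 1181 and 2112 CPM in WT. It was not called either, and 58.4% of the counts on Eno1 and its 3 near copies lay on the copies, so its level is uncertain. Eno2, the neuronal enolase (ENSMUSG00000004267.16, chromosome 6, 124760053 to 124769673), was the one enzyme called in the Smad3-labelled libraries: it had 19.6 and 17.1 in the DKO, 20.7 and 20.7 in the Smad2 KO and 27.2 and 29.98 in the Smad3-labelled libraries, against 9.24 and 13.5 CPM in WT. Its log2 fold change was 0.69 in the DKO (adjusted p = 0.0435), 0.87 in the Smad2 KO (adjusted p = 0.0135) and 1.33 in the Smad3-labelled libraries (adjusted p = 0.0351).

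Pfkp, the platelet-type phosphofructokinase, had 486 and 434 in the DKO, 167 and 290.2 in the Smad2 KO and 340.1 and 324 in the Smad3-labelled libraries, against 236 and 225 CPM in WT. It was called in the DKO (log2 fold change 1.00, SE 0.24, adjusted p = 0.0165), with the reservation that it overlaps Pitrm1 (57314 counts against its own 141139) on the other strand. Aldoc, the aldolase C gene, had 56.4 and 55.5 in the DKO, 99.1 and 64.2 in the Smad2 KO and 92.4 and 94.98 in the Smad3-labelled libraries, against 40.95 and 59.3 CPM in WT. It and Tpi1, the triose phosphate isomerase, were called in the Smad2 KO, by 0.70 and 0.84 on the log2 scale (adjusted p = 0.0435 and 0.0225), and Aldoa, the main aldolase, lay just outside the threshold there (0.82, adjusted p = 0.0513). Hk1, Gpi1, Pfkl, Pfkm, Pgk1, Pgam1 and Pkm were called in no knockout, and of the reads on Pgk1 and its near copies 15.3% lay on the copies.

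All 3 enzymes of folding and collagen hydroxylation were called in the DKO. P4ha2, a collagen prolyl hydroxylase subunit, had 137 and 145 in the DKO, 92.8 and 52.04 in the Smad2 KO and 111 and 114 in the Smad3-labelled libraries, against 34.8 and 47.6 CPM in WT. Its log2 fold change was 1.77 in the DKO (adjusted p = 0.0016), 0.81 in the Smad2 KO (adjusted p = 0.0369) and 1.45 in the Smad3-labelled libraries, just outside the threshold at an adjusted p of 0.0511. Its paralogue P4ha1 had 222 and 192 in the DKO, 177 and 120.2 in the Smad2 KO and 205 and 204 in the Smad3-labelled libraries, against 136 and 122 CPM in WT. It was called in the DKO (0.68, adjusted p = 0.0354). Ero1l, an oxidase that forms disulfide bonds in the endoplasmic reticulum, had 709.8 and 817 in the DKO, 339 and 241 in the Smad2 KO and 711 and 651 in the Smad3-labelled libraries, against 460.3 and 326 CPM in WT. The DKO value was 0.96 (adjusted p = 0.0144), and the Smad2 KO pair overlapped WT.

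These calls differ in how firmly they stand. In the DKO, Pfkfb3, Pfkfb4, Epas1, Adm, Vegfa, Ndrg1, Car9, Ak4 and P4ha2 stayed called under all 23 alternatives, and the number called higher was 10 without its replicate 1 and 9 without its replicate 2. In the Smad2 KO, Hif1a, Adm and Ankrd37 stayed called under all 22 alternatives, whereas the number called higher was 7 with library totals, 2 with the compared groups alone and 13 with a length and GC offset, in place of 16. It was 2 on the scale of log2(TPM + 1), where the median log2 fold change of all genes was -0.51, and 3 on that of log2(TPM + 0.1). At an unadjusted p under 0.05, 8 members were lower and 2 higher on the first scale, and 7 lower and 3 higher on the second. Over all genes, 6949 were called on the first scale, 792 of them higher. On these scales Eno2, Pfkfb3 and Egln1 turned in sign in the Smad2 KO, at -0.24 to -0.016. Without single libraries the Smad2 KO count was 8 (WT day 4 replicate 1), 9 (Smad2 KO replicate 1) and 10 (either Smad3-labelled replicate). Calls over all genes in the Smad3-labelled libraries also moved with the fit, and with single libraries left out. There were 108 of 19470 genes in the main fit and 0 of 17997 with the compared groups alone. Without the day 0 and Smad2 KO libraries 4 of 18779 genes were called. Changes in the member counts are therefore not read as particular to the members. In the Smad3-labelled libraries no member call stood under all alternatives. With the compared groups alone 0 members were called, where 18 were higher at an unadjusted p under 0.05. Without the day 0 and Smad2 KO libraries 0 members were called, where 21 were higher at that threshold. The count there was 17 without WT day 4 replicate 2, 1 without either Smad3-labelled replicate, 2 without WT day 4 replicate 1 or either DKO replicate and 3 without either day 0 replicate, while the log2 values stayed between 3.07 and 3.57 for Adm and between 2.02 and 2.25 for Pfkfb3.

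The file names fall into 2 series, taken as 2 sequencing submissions that the labels do not give. The second held replicate 2 of each group except the DKO, which lies wholly in the first. Calls were made from these same libraries, so the signs of called members within a submission are not read, and the DKO can be set only against the 1 WT library of the first. The values that follow are of members already called, are given for their size only and add no support to the calls. On the scale of log2(CPM + 0.5), Adm was higher by 3.34 and 2.99 in the 2 submissions of the Smad3-labelled libraries, and Vegfa by 1.54 and 1.22. In the Smad2 KO, Vegfa was higher by 1.19 and 0.86, and Hif1a stood at -1.66 and -1.03. Ndrg1 was higher by 2.78 and 3.10 in the 2 libraries of the DKO.

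The knockout groups were also compared with each other. Each group enters 2 of the 3 comparisons, so these share libraries too. The share of members called was near that of all genes for the DKO against the Smad2 KO and against the Smad3-labelled libraries. It was below that of all genes for the Smad2 KO against the Smad3-labelled libraries. The DKO against the Smad2 KO had 10 members higher and 8 lower, where 39.6% of all genes were called, 20.5% higher and 19.1% lower. The 18 calls became 5 without DKO replicate 1 and 10 without DKO replicate 2, and 25 without either WT day 4 replicate. Higher were Epas1 (2.19, adjusted p = 0.000402), Ndrg1 (1.86), Ero1l (1.40), Pfkfb3, Hif1a, Pfkp, P4ha2, Vegfa, Ak4 and Slc2a3 (log2 fold changes from 0.54 to 1.07 for the last 7). Lower in CPM, with signs that turned on the TPM scales for the enzymes and Higd1a, were 5 enzymes, Tpi1, Pgk1, Pgam1, Eno1 and Ldha (from -1.01 to -0.50), with Ankrd37, Ddit4 and Higd1a (from -1.48 to -0.66). On the TPM scales the median log2 fold change of all genes was 0.65 with a pseudocount of 1. Fold changes followed gene length here as well (Spearman correlation 0.59 across genes).

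The DKO against the Smad3-labelled libraries had 4 members higher and 2 lower, where 15.5% of all genes were called in either direction, 7.53% higher and 8.01% lower. Epas1 (2.03, adjusted p = 0.000604), Ndrg1 (1.60, adjusted p = 0.000925), Pfkfb4 (0.92) and Ak4 (0.71) were higher, and Adm (-1.56, adjusted p = 0.00534) and Ddit4 (-0.95) lower. The number of calls was 2 without DKO replicate 1, 3 without its replicate 2 or either Smad3-labelled replicate, 12 without WT day 4 replicate 1 and 13 without WT day 4 replicate 2. The Smad2 KO against the Smad3-labelled libraries had 1 member higher and 5 lower, where 33.6% of all genes were called, 15.7% higher and 17.9% lower. Tpi1 was higher (0.79), and Pfkfb3 (-1.41, adjusted p = 0.00229), Adm (-1.57, adjusted p = 0.00409), Car9 (-1.58), Ero1l (-1.23) and Hif1a (-0.93) were lower. Its count was 3 without Smad3-labelled replicate 1 and 11 without either WT day 4 replicate.

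The effect of Smad2 loss differed between the Smad3-labelled and the WT background in 13 members. The interaction (the DKO against the Smad3-labelled libraries, minus the Smad2 KO against WT) was called in 2 members above 0 and 11 below, where 18.9% of all genes were called, 11.3% above and 7.52% below. Adm was lower by 1.56 on the log2 scale in the DKO against the Smad3-labelled libraries and higher by 1.71 in the Smad2 KO against WT, a difference of -3.27 (SE 0.39, adjusted p = 0.0034). Epas1 was higher by 2.03 in the DKO against the Smad3-labelled libraries, with -0.62 in the Smad2 KO against WT, a difference of 2.65 (SE 0.31, adjusted p = 0.00312). These 2 calls stood under all 22 alternatives, and the number of calls ranged from 2 (without Smad3-labelled replicate 2 or without DKO replicate 1) to 22 (without WT day 4 replicate 2), with 5 without DKO replicate 2, 6 without Smad3-labelled replicate 1 and 8 without Smad2 KO replicate 1.

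**Figure D4:**
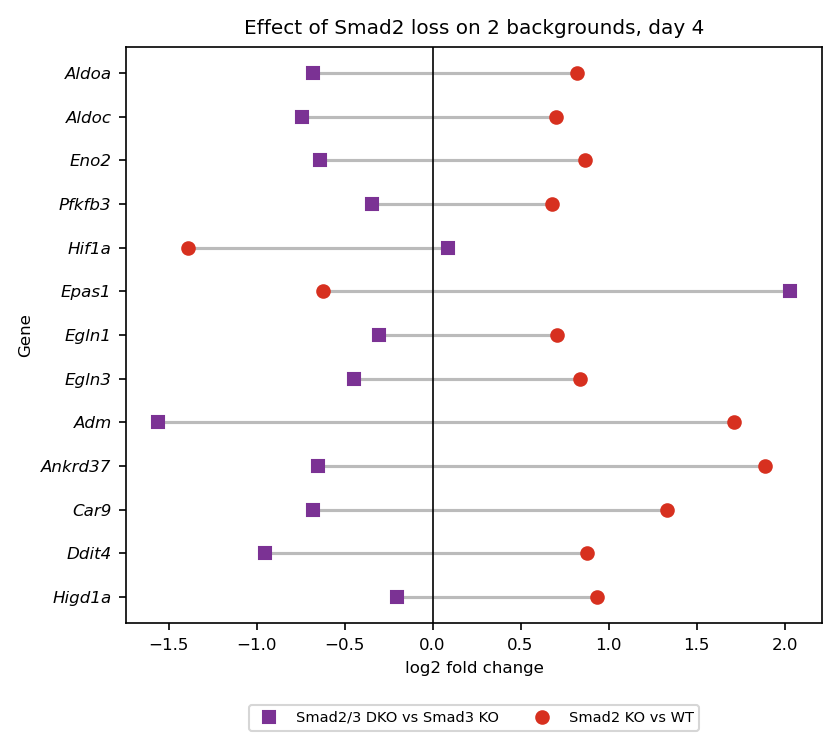
Log2 fold change of Smad2 loss (horizontal axis) in 13 members (vertical axis), as the DKO against the Smad3-labelled libraries (squares) and as the Smad2 KO against WT (circles). Adm lies at -1.56 and 1.71 on the 2 backgrounds and Epas1 at 2.03 and -0.62; the 11 members with a negative interaction have the square left of the circle.

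During differentiation of WT cells, the calls among the members other than enzymes were mostly higher, and few enzymes were called. At day 4 against day 0, 15 members were called higher and 4 lower, where 52.1% of all genes were called, 28.9% higher and 23.2% lower, so that the 19 calls among the 38 genes are a share near the background. Of the 7 stress and mitochondrial targets, 4 were higher and 1 lower. Of the 22 members other than enzymes, 15 were higher and 2 lower, and of the 16 enzymes 0 were higher and 2 lower. At an unadjusted p under 0.05 there was 1 enzyme higher, where 6226 of 19470 genes were. DESeq2 called 0 enzymes higher, where it called 5130 of 32651 genes higher. Adm had 3.59 and 5.18 at day 4, against 0.598 and 0.764 CPM at day 0, at log2 fold change 2.68 (SE 0.32, adjusted p = 0.000243). Ero1l had 460.3 and 326 at day 4, against 93.8 and 95.9 CPM at day 0 (2.05, adjusted p = 0.000183). Pfkfb3 had 50.3 and 45.6 at day 4, against 11.1 and 13.2 CPM at day 0 (1.98, adjusted p = 0.000136). In each of these genes the 2 days did not overlap. The same libraries differed widely in other respects. Ribosomal protein genes held 5.98 and 7.38% of counts at day 4, against 16.85 and 12.5% at day 0, and mitochondrial genes held 3.19 and 2.15% at day 4, against 1.07 and 1.49% at day 0. The 8 endoderm markers summed to 884 and 731 CPM at day 4, against 3.82 and 5.24 CPM at day 0, and all 8 were called higher. The 4 primed epiblast markers summed to 1829 and 1967 CPM at day 4, against 251 and 293 CPM at day 0, and the 4 primitive streak markers to 361 and 371 CPM at day 4, against 4.48 and 4.77 CPM at day 0. The part of these differences in the day 4 values of the 38 genes was not tested.

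Between the days the alpha subunits differed in opposite directions in CPM, though the sign of Epas1 turned on the TPM scales. Hif1a had 219.5 and 136 at day 4, against 60.2 and 62.3 CPM at day 0 (1.54, adjusted p = 0.000724), and Epas1 had 7.32 and 10.7 at day 4, against 15.1 and 15.03 CPM at day 0 (-0.74, adjusted p = 0.0181). On those scales Epas1 stood above 0 (0.051 with a pseudocount of 1, where the median of all genes was 0.63), and fold changes followed gene length in this comparison (Spearman correlation 0.57 across genes), the part of which was not tested for single genes. The Smad2 KO level of Hif1a, 68.95 and 66.6 CPM, lay near the day 0 level. Egln1 had 84.7 and 107 at day 4, against 41.9 and 42.8 CPM at day 0, and Egln3 had 65.6 and 60.5 at day 4, against 28.02 and 30.8 CPM at day 0, both called.

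Both glucose transporters rose at day 4: Slc2a3 had 1850.1 and 1702 at day 4, against 859 and 904 CPM at day 0 (1.01, adjusted p = 0.00106), and Slc2a1 had 547 and 1106 at day 4, against 431 and 451 CPM at day 0 (0.91, adjusted p = 0.0261). Pdk1, uncalled in the knockouts, had 389.5 and 357 at day 4, against 201 and 218 CPM at day 0 (0.83, adjusted p = 0.0158), and Bnip3 had 388 and 278 at day 4, against 179 and 214 CPM at day 0 (0.76, adjusted p = 0.0114). Ndrg1, Ddit4, Ak4, P4ha1 and P4ha2 were higher as well, by 0.78 to 1.06 on the log2 scale. Lower at day 4 were Eno1 (1181 and 2112 at day 4, against 3607 and 3076 CPM at day 0, -1.02), Pfkp (236 and 225 at day 4, against 406 and 455 CPM at day 0, -0.90), Epas1 and Higd1a (-0.62, and 0.20 on the TPM scales). Vegfa was not called, with 32.9 and 47.1 at day 4, against 40.3 and 53.5 CPM at day 0, and neither was Car9, with 0.48 and 0.666 at day 4, against 0.986 and 1.18 CPM at day 0. In all, 19 members were not called at day 4 against day 0. Of these, Gapdh had 1603 and 3319.8 at day 4, against 3919.96 and 4194 CPM at day 0, Hk2 had 192 and 236 at day 4, against 232 and 231 CPM at day 0, and Ldha had 2253 and 3106 at day 4, against 2362 and 2236 CPM at day 0. Without WT day 0 replicate 1 the number called higher was 9 and lower 1, without day 0 replicate 2 the number lower was 2, and without WT day 4 replicate 2 it was 11.

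Within families, the share of each isoform in the summed TPM of the family shows per-length use. Hk1 made up 46.1 and 36.4% of Hk1 and Hk2 in the DKO, 11.6 and 23.9% in the Smad2 KO and 25.7 and 28.4% in the Smad3-labelled libraries, against 17.9 and 34.3% in WT at day 4, so that the DKO pair lay above the WT pair. The TPM of Hk2 did not follow its CPM, so the shares of Hk1 are uncertain. Hk2 had 152 and 266 CPM but 116 and 102 TPM in the Smad2 KO. In WT at day 4 it had 192 and 236 CPM but 94.95 and 60.3 TPM. Slc2a1 made up 42.9 and 44.9% of Slc2a1 and Slc2a3 in the DKO, 55.6 and 53.8% in the Smad2 KO and 32.8 and 34.7% in the Smad3-labelled libraries, against 31.7 and 47.8% in WT, a span that held the DKO and the Smad3-labelled pairs. The Smad2 KO was thus the one group whose Slc2a1 share lay above both WT libraries. These shares were not tested.

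Markers of other cell types differed between the same groups. The summed level of 9 trophoblast markers was 2267 and 2771 in the DKO, 2796 and 1937 in the Smad2 KO and 652 and 827 in the Smad3-labelled libraries, against 228 and 413 CPM in WT at day 4. Of these 9 markers, 8 were called higher in the DKO, 9 in the Smad2 KO and 2 in the Smad3-labelled libraries. That of 4 primitive streak markers was 6.77 and 5.66 in the DKO, 152.6 and 11.8 in the Smad2 KO and 177 and 197 in the Smad3-labelled libraries, against 361 and 371 CPM in WT. Summed levels of 8 endoderm markers were 162 and 106 in the DKO, 41.9 and 39.5 in the Smad2 KO and 496 and 481 in the Smad3-labelled libraries, against 884 and 731 CPM in WT. The 4 primed epiblast markers summed to 285 and 282 in the DKO, 428 and 512 in the Smad2 KO and 946 and 942 in the Smad3-labelled libraries, against 1829 and 1967 CPM in WT. Endothelial and blood markers (6) summed to 93.6 and 71.4 in the DKO, 23.8 and 36.1 in the Smad2 KO and 26.5 and 27.6 in the Smad3-labelled libraries, against 25.95 and 26.9 CPM in WT, with Hbb-bh1 at 0 in the Smad3-labelled libraries and both WT groups. The 6 pluripotency markers summed to 742 and 578 in the DKO, 1297 and 1643 in the Smad2 KO and 683 and 782 in the Smad3-labelled libraries, against 981 and 1402 CPM in WT at day 4, and to 4127 and 4232 CPM at day 0. Pou5f1 is the largest single term of the WT sum, and the 6 genes did not move together in the DKO, where Klf4 was called higher (1.97), Nanog (-0.82) and Pou5f1 (-2.09) were called lower, and the median log2 fold change was 0.08. The part of these cell type differences in the values of the 38 genes was not tested.

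Other genes of the same pathways were called in both directions in the DKO and the Smad2 KO, as were genes in general. Over all genes tested, 10.8% were called higher and 12.3% lower in the DKO, and 15.4% higher and 20.1% lower in the Smad2 KO. In the Smad3-labelled libraries 0.431% were higher and 0.123% lower. Some of the counts below lie near these shares. Of 28 further HIF pathway genes, 7 were higher and 3 lower in the DKO, 6 higher and 6 lower in the Smad2 KO and 1 higher and 0 lower in the Smad3-labelled libraries, and the median log2 fold change was 0.20 in the DKO, 0.13 in the Smad2 KO and 0.39 in the Smad3-labelled libraries. In the Smad3-labelled libraries 9 were higher and 0 lower at an unadjusted p under 0.05, and DESeq2 called 5 higher and 0 lower. Over all genes, 1530 of 19470 were higher and 1813 lower there at that unadjusted p. DESeq2 called 757 of 32651 genes there, 485 of them higher. Hmox1, the heme oxygenase, and Pgf, the placental growth factor, were among those higher in the DKO (1.79 and 0.90), and Hif3a, Arnt2 and Flt1, a VEGF receptor, were the 3 lower there (-0.59, -1.90 and -0.97). Of 26 further glycolysis and pyruvate genes, 25 were tested, and 4 were higher and 2 lower in the DKO, 7 higher and 6 lower in the Smad2 KO and 0 in either direction in the Smad3-labelled libraries, where 3 were higher and 4 lower at an unadjusted p under 0.05 and DESeq2 called 0 as well. Slc2a2 (GLUT2), a glucose transporter of liver and endoderm, was called lower in the Smad2 KO at 0 and 0.0213 CPM, against 0.617 and 0.452 CPM in WT. Reads were too few in the Smad2 KO for its fold change to be given. In the DKO, both mitochondrial pyruvate carrier genes, Mpc1 and Mpc2, were higher (1.13 and 1.04). At day 4 against day 0, the HIF pathway genes had 14 higher and 6 lower, and the glycolysis and pyruvate genes 5 higher and 8 lower. Between these days 28.9% of all genes were called higher and 23.2% lower.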

How the data were processed

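RNA was measured in 10 libraries, with 1 gene table each; 14 further samples, of chromatin immunoprecipitation, were left aside. Per the file headers, the authors deposited expected counts (RSEM estimates that need not be whole), and TPM and FPKM values in the same tables; only FPKM stayed unused. Tools named in the submitters' processing notes are STAR, RSEM, Bowtie2, HOMER and FastQC (0.11.5), beside the mm10 build, without roles. Annotation version and strand setting are not stated in the sources. Gene IDs were matched to GENCODE M21 (50604 with version, 2670 without, 105 unmatched). Aldoa has 2 IDs, and the one with the larger overlap with RefSeq was used.

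After rounding, expected counts went into edgeR 4.0.16 under R 4.3.3 (TMM, filterByExpr, quasi-likelihood F test) in 1 fit over 5 groups, with 5 residual degrees of freedom and a common biological coefficient of variation of 0.248. In the fit, the spread is shared by all groups. Simulated counts for the Smad2 knockout against WT (19017 genes) gave calls for 24% of 2-fold and 86% of 4-fold changes, 0 wrong signs and 11 false calls. Depth was 35733249 to 53672980 counts. Alternatives were library totals or RLE size factors, a stricter filter or none, replicate or submission blocks, the compared groups alone, DESeq2 1.42.0, limma 3.58.1 on log2(TPM + 1) and log2(TPM + 0.1), a length and GC offset and leaving out each library; near copies summed (at least 95% identity over 300 bases) and a fit without the day 0 and Smad2 knockout libraries were chosen after seeing the data.

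The 38 genes, the lists and the tests were chosen with earlier results of these data known. Named with values in each library were a panel of 21 genes and every member called in the Smad3-labelled libraries or the double knockout; other called members are named with a fold change, and a few members just outside the threshold were named after their values were seen.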

Additional observations from a re-analysis of the deposited data

Results flagged for a closer look

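In 13 members the effect of Smad2 loss differed between the Smad3-labelled background and the WT background, by a test of the difference itself (edgeR, interaction term, adjusted p under 0.05). Over all genes tested 18.9% were called in this test, 11.3% above 0 and 7.52% below. The interaction on the log2 scale was -3.27 for Adm (adjusted p = 0.0034), -2.54 for Ankrd37 (adjusted p = 0.011), -2.01 for Car9 (adjusted p = 0.0244) and -1.83 for Ddit4 (adjusted p = 0.011). It was -1.51 for Eno2, -1.50 for Aldoa, -1.45 for Aldoc, -1.29 for Egln3, -1.14 for Higd1a, -1.03 for Pfkfb3 and -1.02 for Egln1, with adjusted p from 0.013 to 0.042. Above 0 stood Hif1a at 1.48 (adjusted p = 0.0173) and Epas1 at 2.65 (adjusted p = 0.00312). The interaction values followed gene length across all genes (Spearman correlation 0.57), as did those of the Smad2 KO that enters it, and the part of length in single values was not tested. Adm and Epas1 stayed called under all 22 alternatives, and each of the other 11 lost its call under at least 1.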

How the results depend on the processing

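Of 101 called values over 8 comparisons, 26 kept their call and direction under all alternatives, and 12 turned in sign under at least 1. With single libraries left out, the number called higher was 9 to 16 for day 4 against day 0, 8 to 21 for the Smad2 KO, 1 to 17 for the Smad3-labelled libraries and 9 to 19 for the DKO. The number called lower was 1 to 11 for day 4 against day 0, 1 to 2 for the Smad2 KO, 0 to 1 for the Smad3-labelled libraries and 0 to 4 for the DKO. Calls in either direction were 3 to 11 for the Smad2 KO against the Smad3-labelled libraries, 5 to 25 and 2 to 13 for the DKO against the Smad2 KO and against the Smad3-labelled libraries, and 2 to 22 for the interaction. Where 1 library of a group is left, it is assumed to vary like the other groups.

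On log2(TPM + 1) and log2(TPM + 0.1), 23 and 24 members were higher and 2 and 1 lower at day 4; 2 and 3 were higher and 6 and 4 lower in the Smad2 KO; 20 and 18 were called between the single knockouts and 3 and 3 between the DKO and the Smad3-labelled libraries, and log2(TPM + 0.1) left 3 higher in the Smad3-labelled libraries against WT. Library totals gave 2 lower at day 4, 7 higher and 3 lower in the Smad2 KO and 12 calls between the single knockouts. Without a filter, 7 were lower at day 4, 15 higher in the Smad3-labelled libraries, 1 lower in the DKO and 11 called between the single knockouts. The stricter filter gave 2 lower in the Smad2 KO, as did DESeq2 and the submission block, which both gave 1 lower in the DKO. DESeq2 gave 14 higher in the Smad3-labelled libraries. Over all genes, 485 were called higher there by DESeq2, 686 without a filter and 709 with the length and GC offset, against 84 in the main fit. The compared groups alone gave 2 lower at day 4, 2 higher in the Smad2 KO, 0 in the Smad3-labelled libraries and 20 between the DKO and these. The length and GC offset gave 15 higher in the Smad3-labelled libraries, 3 lower in the DKO, 13 between the single knockouts and 13 between the DKO and the Smad3-labelled libraries. Without the day 0 and Smad2 KO libraries, 0 were higher in the Smad3-labelled libraries. Over all genes, 4 were called there in that fit and 0 with the compared groups alone. The cause of these changes was not tested. The smaller fits change the number of libraries, the groups that share the spread, the filter and the normalization together.

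Signs turned on the TPM scales (values for a pseudocount of 1, then 0.1) for Epas1 (0.051, 0.067) and Higd1a (0.20, 0.20) at day 4, where the median of all genes was 0.63 with a pseudocount of 1; for Eno2 (-0.22, -0.24), Pfkfb3 (-0.016, -0.017) and Egln1 (-0.019, -0.020) in the Smad2 KO, where it was -0.51; for Tpi1 (-0.065, -0.065) between the single knockouts, where it was -0.57; and for Tpi1 (0.14, 0.14), Pgk1 (0.070, 0.070), Pgam1 (0.39, 0.39), Eno1 (0.0021, 0.0021), Ldha (0.19, 0.19) and Higd1a (0.097, 0.098) in the DKO against the Smad2 KO, where it was 0.65. With the length and GC offset, Higd1a turned to 0.16 at day 4 and 0.15 in the DKO against the Smad2 KO, and Epas1 to 0.060 in the Smad2 KO.

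The labels do not say that replicate numbers pair the libraries. Deviations of libraries with the same number correlated at 0.11 to 0.51 in the 6 pairs of groups without the DKO, whose numbers coincide with the submission, and at -0.18 to -0.04 in the 4 pairs with it, whose libraries lie in 1 submission. With the replicate block, 16 members were higher in the Smad2 KO, 6 in the Smad3-labelled libraries and 16 in the DKO. With the submission block, 19 were higher in the Smad2 KO, 8 in the Smad3-labelled libraries and 17 in the DKO. Depth limits Car9 and Pfkfb4 most, with 869 and 1648 counts over all libraries.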
